A study of Mus musculus with 4 samples.

Results

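AGO2 contacts on 6 Sox genes of the neural lineage, Sox2, Sox4, Sox5, Sox9, Sox11 and Sox12, were described in newborn mouse brain. A region belonged to one of these genes if its midpoint lay inside the GENCODE gene on the same strand of GRCm38 (mm10). In the knockout-labelled library 42 of 45911 clusters in exons of all genes lay in exons of the 6 genes, and in the wild-type library 34 of 24123 did. The authors' deposited table that compares the immunoprecipitates held 34 such regions, each with the same bounds as a wild-type cluster.

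The study performed eCLIP, which crosslinks a protein to its RNA, immunoprecipitates it and sequences the RNA fragments. Here AGO2 was precipitated at postnatal day 0 from the whole brain of mice labelled Fmr1 knockout and of wild-type mice, both C57BL/6. Each genotype had 1 immunoprecipitate (IP) and 1 size-matched input, which is RNA of the same preparation without the AGO2 selection. Fmr1 encodes FMRP, an RNA-binding protein, and the series title concerns FMRP, AGO2 and microRNA sites in G-quadruplexes. The knockout allele and the number of brains pooled are not in the sources used here. With 1 library per genotype no difference below has a replicate check, and each interval covers counting error only.

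SOX proteins are transcription factors that bind DNA through an HMG box. SOX2 keeps neural progenitors undifferentiated, SOX9 is needed for the onset of gliogenesis, and the SoxC genes Sox4, Sox11 and Sox12 act as cells leave the cycle and become neurons. SOX5, of the SoxD group, controls when deep-layer projection neurons of the cortex migrate and take their identity. AGO2 carries microRNAs (miRNAs), which select mRNAs mainly by pairing of the seed, bases 2 to 8 of the miRNA, with sites that lie most often in 3' UTRs.

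The sequences that matter most here are the miRNA seed matches inside 3' UTR clusters of these genes. The 5 miRNAs with such a match are printed first, from RefSeq, with the seed in capitals and each standing for its family.
mmu-miR-30a-5p: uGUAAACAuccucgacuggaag
mmu-miR-34a-5p: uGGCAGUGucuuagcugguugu
mmu-miR-92a-3p: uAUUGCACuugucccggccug
mmu-miR-125b-5p: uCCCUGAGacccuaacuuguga
mmu-miR-128-3p: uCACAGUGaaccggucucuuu

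The matching sites follow as windows of 30 bases of the transcript strand, 5′ to 3′ in GRCm38. Capitals mark the bases that pair with the seed and, in an 8mer, also the A opposite the first base of the miRNA.
Sox12, miR-30 8mer, chr2:152396697-152396726, minus strand: cccaaaccagcTGTTTACAtacaggaatca
Sox4, miR-30 8mer, chr13:28949774-28949803, minus strand: tggtttctccaTGTTTACActtcaatctgc
Sox4, miR-34 7mer, chr13:28948986-28949015, minus strand: atcctgtccgtCACTGCCtgtcaggttgtt
Sox4, miR-25/92 8mer, chr13:28949128-28949157, minus strand: ccatccatcctGTGCAATAtgccgtgtaga
Sox4, miR-125 7mer, chr13:28951399-28951428, minus strand: catcccccactCTCAGGGctggggactcga
Sox9, miR-128 7mer, chr11:112786509-112786538, plus strand: cctagaacattCACTGTGcctttgcctgct

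Both miR-30 sites and the miR-34 site lay in wild-type clusters, the miR-25/92 and miR-125 sites lay in knockout-labelled clusters, and the miR-128 site of Sox9 lay in clusters of both libraries. A letter match describes the sequence and does not show which miRNA was bound.

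For each cluster the authors gave a log2 ratio of IP over input read density and a -log10 p. Reads per cluster were recovered from these values, and a listed input of 1 read may stand for 0, so it is written as at most 1. The scores also fixed the depth ratios. Depth of the knockout-labelled over the wild-type IP was 2.28, and each input was deeper than its own IP, by 1.92 times in the knockout-labelled pair and 6.34 times in the wild-type pair. A cluster of 3 IP reads over at most 1 input read therefore had a log2 of 2.52 in the knockout-labelled file and 4.25 in the wild-type file. Read counts beside values of the deposited table between the IPs were recovered in the same way, and its own entries are log2 and -log10 p. A cluster was called enriched at a -log10 p of 3 or more together with a log2 of 3 or more. Clusters of all 7 neuron markers appeared in both libraries, with 2183 IP reads in the knockout-labelled and 875 in the wild-type library. Of 5 microglia markers 1 had clusters in the knockout-labelled library and 2 had them in the wild-type library, with 5 and 14 IP reads in that order. In the same order, IP reads numbered 196 and 73 on neural progenitor markers (Sox2 among them), 64 and 34 on astrocyte, 59 and 28 on oligodendrocyte lineage, 16 and 6 on endothelial and mural, 31 and 44 on erythroid and 284 and 153 on choroid plexus markers, the last from 1 of 3 genes in each library. The part of these cell types in the results was not tested. Fmr1 RNA gave 3 coding, 1 5' UTR and 1 3' UTR cluster in the knockout-labelled library and 1 coding and 1 3' UTR cluster in the wild-type library. None of them was enriched. The coding clusters had a log2 over input of -1.52, 0.16 and 0.29 in the knockout-labelled library and 1.18 in the wild-type library.

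Across the 6 genes the clusters were placed differently in the 2 libraries. In the knockout-labelled library 24 of 42 clusters (57.1%, 95% Clopper-Pearson interval 41.0 to 72.3) lay in coding sequence, 16 (38.1%, 23.6 to 54.4) in 3' UTRs and 2 in 5' UTRs. In the wild-type library 20 of 34 (58.8%, 40.7 to 75.4) lay in 3' UTRs, 12 (35.3%, 19.7 to 53.5) in coding sequence and 2 in 5' UTRs. Sox4 alone gave 10 of these 20 3' UTR clusters. The intervals treat clusters as independent, although some abut one another. Over all genes coding sequence held 69.0% of exonic clusters in the knockout-labelled library and 58.0% in the wild-type library. The 3' UTR held 23.3% of them in the knockout-labelled and 35.6% in the wild-type library, so the 6 Sox genes had the larger 3' UTR share in each library.

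Enriched clusters numbered 6 of 42 in the knockout-labelled library (14.3%, 5.43 to 28.5), where 3.57% of exonic clusters of all genes and 3.08% of all clusters were enriched. They numbered 15 of 34 in the wild-type library (44.1%, 27.2 to 62.1), where these shares were 27.5% and 24.1%. By place, 3 of 16 3' UTR clusters, 2 of 24 coding clusters and 1 of 2 5' UTR clusters were enriched in the knockout-labelled library, against 8.98%, 1.65% and 4.45% of such clusters of all genes. In the wild-type library 11 of 20 3' UTR clusters, 4 of 12 coding clusters and 0 of 2 5' UTR clusters were enriched, against 37.1%, 21.2% and 30.8% over all genes. Clusters of the 6 genes also held more reads than the common cluster: the median was 12 IP reads for the knockout-labelled coding clusters and 6 for the wild-type ones, while that over all genes was 4 in both. A higher read number alone helps a cluster reach the -log10 p limit, and its part in these shares was not tested. Input support was thin, since 2 of the 6 enriched knockout-labelled clusters and 5 of the 15 enriched wild-type clusters had at most 1 input read.

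**Figure D1:**
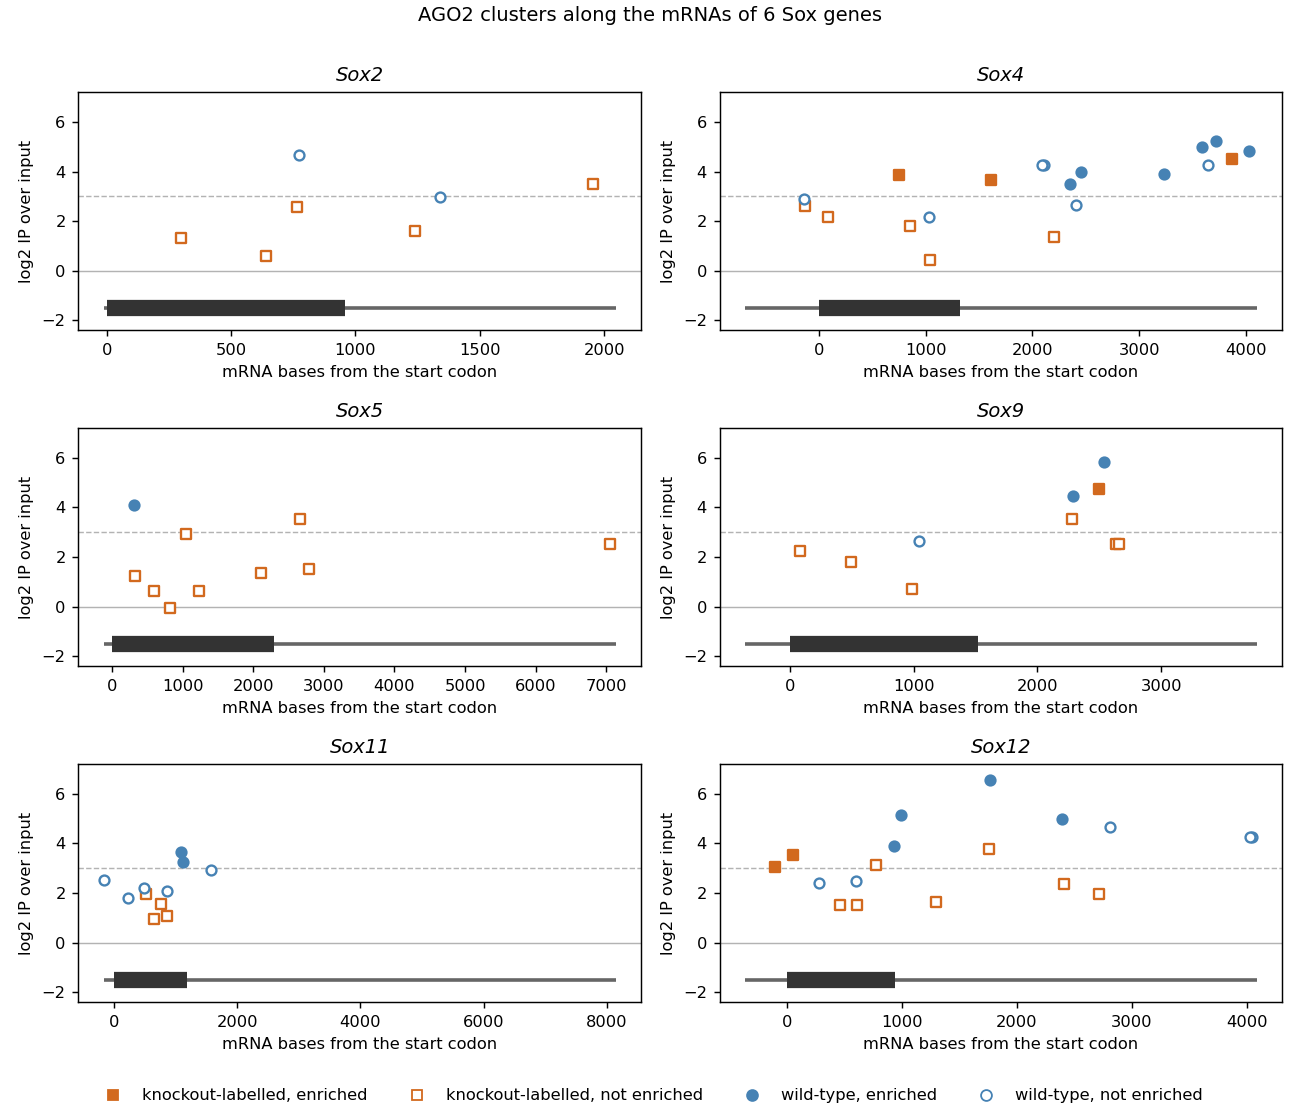
Each symbol is an AGO2 cluster, placed by its midpoint in bases from the start codon of the mRNA (x axis) and by the authors' log2 of IP over input (y axis). Orange squares are knockout-labelled, blue circles wild-type, and filled symbols are enriched, which needs a log2 of 3 or more (dashed line) and a -log10 p of 3 or more. The thick bar is the coding sequence and the thin line the UTRs. In Sox4, Sox9 and Sox12 the wild-type symbols reach highest in the 3' UTR, and in Sox11 all 4 knockout-labelled clusters lie in the coding sequence.

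Sox2, the single-exon progenitor gene (chr3:34650405-34652461, plus strand), had no enriched cluster in either library. It had 3 coding and 2 3' UTR clusters in the knockout-labelled library, with 66 IP reads, against 1 coding and 1 3' UTR cluster with 9 IP reads in the wild-type library. The coding cluster with the most reads (chr3:34651142-34651220) held 28 IP reads over 9 input reads in the knockout-labelled library, a log2 of 2.58 (1.45 to 3.85). A wild-type coding cluster of 4 IP reads over at most 1 input read (log2 4.66) lay inside it. In that wild-type region 25 knockout-labelled and 4 wild-type IP reads were recovered from the authors' deposited table, whose log2 of wild type over knockout-labelled was -1.46 (-3.44 to 0.08). The wild-type cluster with the most reads lay in the 3' UTR, with 5 IP over 4 input reads (chr3:34651736-34651774, log2 2.99, 0.77 to 5.32), and no knockout-labelled cluster overlapped it. It ran the opposite way in the authors' deposited table, with at most 1 knockout-labelled read beside the 5 wild-type reads and a log2 of wild type over knockout-labelled of 3.51 (lower bound 0.35).

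Sox2 lies inside Sox2ot, a non-coding gene on the same strand, so reads here cannot be assigned by strand alone. A further 3 knockout-labelled clusters of 12, 9 and 5 IP reads and 2 wild-type clusters of 3 IP reads each lay 127 to 219 bases before the start of the GENCODE Sox2 gene. GENCODE places them in an intron of Sox2ot, whereas in RefSeq they fall in a Sox2 exon, and they are not among the 42 and 34 clusters.

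Sox9, the gliogenic factor (chr11:112782224-112787760, plus strand), had its AGO2 contacts at 2 shared places of the 3' UTR, beside which the knockout-labelled library had 2 more 3' UTR clusters of 3 IP reads each. The first held 6 IP reads over at most 1 input read in the knockout-labelled library (chr11:112786240-112786296, log2 3.52, not enriched) and 7 over 2 in the wild-type library (chr11:112786248-112786309, log2 4.47, enriched). At the second, which contains the miR-128 match shown above, 14 IP reads stood over at most 1 input read in the knockout-labelled library (chr11:112786449-112786530, log2 4.75, -log10 p 5.50). The wild-type cluster there (chr11:112786501-112786558) held 9 IP reads over at most 1 (log2 5.83, -log10 p 6.85). Of the 6 genes, only Sox9 had an enriched cluster in each library that overlapped an enriched cluster of the other. In the authors' deposited table the log2 of wild type over knockout-labelled was 1.19 (-0.55 to 2.93) at the first place and 0.90 (-0.55 to 2.31) at the second, both with intervals that include 0. The Sox9 coding sequence held 3 knockout-labelled clusters of 9, 6 and 5 IP reads and 1 wild-type cluster of 3, none of them enriched.

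Sox4, a SoxC gene with a single exon (chr13:28948919-28953713, minus strand), had the most exonic wild-type clusters of the 6 genes. In the knockout-labelled library it had 4 coding, 3 3' UTR and 1 5' UTR cluster, and in the wild-type library 1 coding, 10 3' UTR and 1 5' UTR cluster. No 3' UTR cluster of one library overlapped one of the other. The knockout-labelled library had 2 enriched 3' UTR clusters. One of 12 IP reads over at most 1 input read holds the miR-25/92 match (chr13:28949135-28949159, log2 4.52), and one of 20 over 3 holds the miR-125 match (chr13:28951386-28951443, log2 3.68, 1.92 to 6.07). One more enriched cluster lay in the coding sequence, with 15 IP reads over 2 (chr13:28952256-28952290, log2 3.85, 1.74 to 7.02). Wild-type reads at these places are not known, because the deposited table covers regions of wild-type clusters.

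The wild-type library had 6 enriched clusters in the Sox4 3' UTR, of 5 to 9 IP reads each, with log2 values of 3.51 to 5.25. One of 9 IP reads over 2 input reads holds the miR-34 match (chr13:28948964-28949018, log2 4.83, 2.56 to 8.08) and one of 7 over 3 holds the miR-30 match (chr13:28949775-28949808, log2 3.89, 1.76 to 6.47). The others held 6 reads over at most 1 (chr13:28949281-28949316), 5 over at most 1 (chr13:28949403-28949460), 5 over 2 (chr13:28950542-28950582) and 9 over 5 (chr13:28950630-28950704). From the authors' deposited table at most 1 knockout-labelled read was recovered in the miR-34 region beside the 9 wild-type reads, a log2 of wild type over knockout-labelled of 4.36 with a lower bound of 1.51. The miR-30 region had 7 reads of each library, a log2 of 1.19 (-0.55 to 2.93) in the same table.

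Sox4 reads from the other end of the mRNA ran the opposite way. The knockout-labelled 5' UTR cluster (chr13:28953066-28953237) held 55 IP reads over 17 input reads, a log2 of 2.63 (1.83 to 3.51), and the wild-type cluster inside it (chr13:28953129-28953194) held 7 over 6, a log2 of 2.89 (1.09 to 4.73). In this wild-type region 44 knockout-labelled and 7 wild-type IP reads were recovered from the authors' deposited table, which gave it a log2 of wild type over knockout-labelled of -1.46 (-2.86 to -0.30). The Sox4 coding cluster with the most reads held 46 IP over 66 input reads in the knockout-labelled library (chr13:28951929-28952035, log2 0.42) and 12 over 17 in the wild-type library (chr13:28951945-28952040, log2 2.16). Neither reached the log2 limit.

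Sox11 is the SoxC gene with the longest 3' UTR of the 3, of 6960 bases with the stop codon (chr12:27334264-27342574, minus strand). It carried the most IP reads in knockout-labelled clusters of the 6 genes, and no knockout-labelled cluster lay in its 3' UTR. Its 287 reads in knockout-labelled clusters lay in 4 coding clusters, which placed it at rank 52 of 6662 genes by IP reads in coding clusters. They held 84 IP over 77 input reads (chr12:27341495-27341604), 58 over 38 (chr12:27341605-27341694), 69 over 69 (chr12:27341695-27341816) and 76 over 38 (chr12:27341841-27341938). Their log2 values were 1.07 (0.60 to 1.53), 1.55 (0.93 to 2.18), 0.94 (0.44 to 1.44) and 1.94 (1.36 to 2.54), so the IP exceeded the input by less than the limit in each. Input coverage was thus high at the same bases: the 4 clusters together had 222 input reads.

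In the wild-type library Sox11 had 63 IP reads in 5 coding clusters, 1 3' UTR cluster of 6 reads and 1 5' UTR cluster. The 5' UTR cluster held the most, 19 IP over 21 input reads (chr12:27342521-27342618, log2 2.52, 1.54 to 3.49). The enriched ones were 2 abutting coding clusters of 6 reads each, over 4 and over 3 input reads (chr12:27341290-27341302 and chr12:27341303-27341337, log2 3.25 and 3.66), which can share reads. In the authors' deposited table the intervals of 2 coding regions lay below 0. One had 73 knockout-labelled and 12 wild-type reads (log2 of wild type over knockout-labelled -1.42, -2.43 to -0.53 in the authors' deposited table) and the other 55 and 8 in that order (log2 -1.59, -2.87 to -0.52). The 3' UTR region had 8 knockout-labelled and 6 wild-type reads (log2 0.77, -1.03 to 2.49), although no knockout-labelled cluster was called there. A knockout-labelled cluster of 40 IP over 21 input reads at the Sox11 start (chr12:27342540-27342611) had its midpoint 1 base outside the GENCODE gene, though inside the RefSeq exon, and is not counted here.

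Sox12, the last of the SoxC genes (chr2:152393611-152398063, minus strand), had the highest log2 of the 6 genes in the wild-type library. In the knockout-labelled library its 2 enriched clusters lay near the start codon. One of 17 IP over 4 input reads lay in the 5' UTR (chr2:152397771-152397837, log2 3.03, 1.41 to 5.06), and one of 12 over 2 lay in the coding sequence with its midpoint 50 bases after the start codon (chr2:152397632-152397664, log2 3.52, 1.36 to 6.73). The wild-type library had no cluster at either place. The most reads of a knockout-labelled Sox12 cluster were 28 over 19, in the coding sequence (chr2:152397195-152397286, log2 1.50, 0.61 to 2.42).

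Wild-type enriched clusters of Sox12 lay from the end of the coding sequence onwards. The one with the miR-30 match, whose midpoint lies 48 bases past the coding sequence, held 22 IP over 4 input reads (chr2:152396671-152396747, log2 5.12, 3.57 to 7.12, -log10 p 15.11). A coding cluster just before it held 7 over 3 (chr2:152396751-152396780, log2 3.89). Another 3' UTR cluster held 15 IP reads over at most 1 (chr2:152395897-152395966, log2 6.57, lower bound 3.87), and one more held 5 over at most 1 (chr2:152395274-152395343, log2 4.99). At the place of the 15 reads the knockout-labelled library had a cluster of 7 IP reads over at most 1 (chr2:152395927-152395962, log2 3.75, -log10 p 2.51), short of the -log10 p limit. At the miR-30 place it had no cluster, although 13 knockout-labelled reads beside 22 wild-type reads were recovered from the authors' deposited table in the wild-type region (log2 of wild type over knockout-labelled 1.95, 0.89 to 3.06).

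Sox5, the SoxD gene of the cortical projection neurons (chr6:143828425-144781977, minus strand), was the only one of the 6 with intronic clusters. The models of Sox2, Sox4, Sox11 and Sox12 have 1 exon and so no intron, that of Sox9 has 3 exons and that of Sox5 has 15. Sox5 had 6 coding, 3 3' UTR and 50 intronic clusters in the knockout-labelled library and 1 coding, 0 3' UTR and 35 intronic clusters in the wild-type library. None of its 9 knockout-labelled coding and 3' UTR clusters was enriched. The coding cluster with the most reads held 17 IP over 14 input reads in the knockout-labelled library (chr6:144116562-144116629, log2 1.22, 0.11 to 2.35) and 8 over 3 in the wild-type library, where it was enriched (chr6:144116588-144116626, log2 4.08, 2.02 to 6.63). In the wild-type region 18 knockout-labelled and 8 wild-type reads were recovered from the authors' deposited table, which gave it a log2 of wild type over knockout-labelled of 0.02 (-1.39 to 1.29). Enriched intronic clusters numbered 0 of 50 in the knockout-labelled and 5 of 35 in the wild-type library, against 1.09% and 18.4% of intronic clusters of all genes in the same order. Intronic Sox5 clusters, enriched or not, were small, with a median of 3 IP reads in both libraries. A pair of abutting wild-type clusters of 7 IP reads each over at most 1 input read (chr6:143907234-143907244 and chr6:143907245-143907281, log2 5.47 each) lay in an exon that GENCODE gives only to non-coding Sox5 transcripts.

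**Figure D2:**
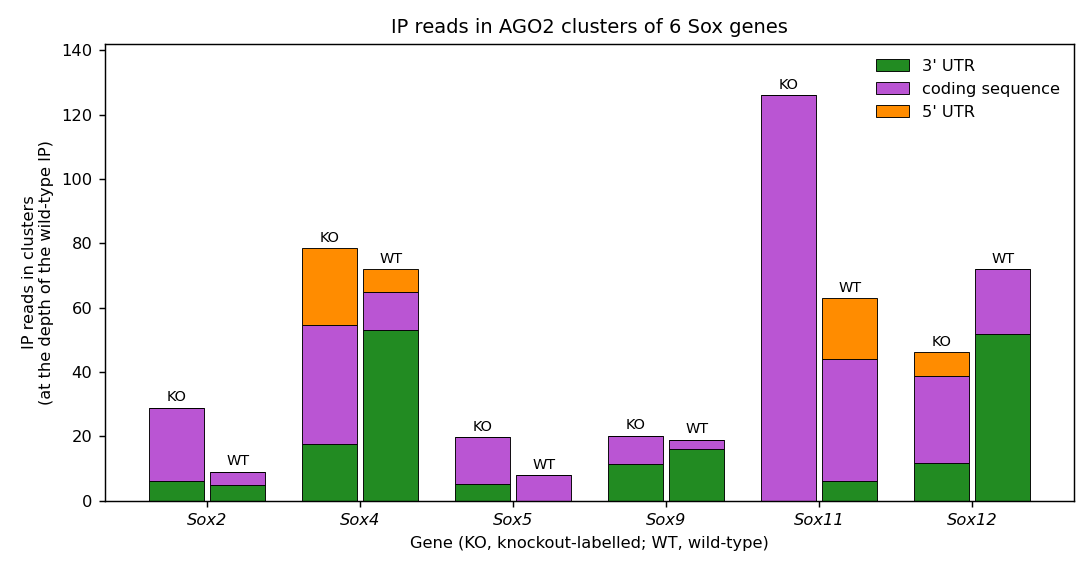
Bars give the IP reads in AGO2 clusters of each gene, with knockout-labelled (KO) left of wild-type (WT) and the KO reads divided by the IP depth ratio of 2.28. Colours stack the reads by 3' UTR, coding sequence and 5' UTR. The Sox11 KO bar, at 126 reads, is all coding sequence, whereas the Sox4 and Sox12 WT bars hold 53 and 52 reads in the 3' UTR.

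Summed over clusters and scaled to the wild-type IP depth, the 3' UTRs of the 6 genes held 52.2 reads in the knockout-labelled library and 132 in the wild-type library. Their coding sequences held 236 in the knockout-labelled and 85 in the wild-type library. Clusters were called in each library on its own, so these sums move with how much was called. The next comparison avoids this for one side, since it counts both IPs in the same regions, those of wild-type clusters.

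The authors' deposited table compares the IP reads of the 2 libraries, without the inputs. Its log2 is wild type over knockout-labelled, so a positive value means more reads in wild type at equal depth. Of the 34 regions, 3 passed a -log10 p limit of 3 together with a log2 limit of 1, while 2.88% of exonic regions of all genes and 3.39% of all regions did. They were 3 of the 20 3' UTR regions, 0 of the 12 coding regions and 0 of the 2 5' UTR regions, against 3.82%, 2.15% and 4.21% of such regions of all genes. The 3 were the Sox4 region of the miR-34 match (log2 4.36, -log10 p 3.78), the Sox12 region of the miR-30 match (log2 1.95, -log10 p 4.15) and the Sox12 region with 8 knockout-labelled and 15 wild-type reads (log2 2.09, -log10 p 3.15), each from the authors' deposited table. That table lists -log10 p as 0 wherever log2 is below 0, so by this rule no region could be called lower in wild type.

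By place, the regions differed in how many lay below 0. All 20 3' UTR regions had a positive log2 in the authors' deposited table, from 0.05 to 4.36 with a median of 1.77, and over all genes the 3' UTR median was 1.93 with 5.20% below 0. The 12 coding regions had a median of 0.10 in the authors' deposited table with 5 below 0, whereas over all genes the coding median was 1.77 with 11.2% below 0. Both 5' UTR regions were below 0, against 12.2% over all genes. The regions are those of clusters called in the wild-type IP, and one of 3 wild-type reads beside at most 1 knockout-labelled read already scores 2.77, so values over regions with 20 or more reads of both IPs together are given as well. There the 7 Sox coding regions had a median of -0.75 with 5 below 0, and all genes had 0.09 with 48.1% below 0. The 3 Sox 3' UTR regions with 20 or more reads had a median of 1.95, and all genes had 0.77. Both Sox 5' UTR regions had 20 or more reads, and of such 5' UTR regions of all genes 49.0% were below 0.

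Reads summed over the regions kept the 3' UTR sign and gave the coding regions a negative one. In 3' UTRs the 6 genes had 96 knockout-labelled and 132 wild-type reads, a log2 of wild type over knockout-labelled of 1.65 (1.26 to 2.04). In coding regions they had 268 knockout-labelled and 85 wild-type reads, a log2 of -0.47 (-0.84 to -0.11), and in 5' UTRs 91 and 26 in that order, a log2 of -0.62 (-1.31 to 0.02). Over regions of all genes with 20 or more reads the median was 0.77 in 3' UTRs and 0.09 in both coding sequence and 5' UTRs. Without this minimum the median was 1.93 in 3' UTRs and 1.77 in both others. The 3' UTR sum lay between the medians of its kind, and the other sums lay below both of theirs. A sum over regions and a median of regions are unlike measures, and no sum over all genes was computed. Sox11 supplied 149 of the 268 knockout-labelled coding reads and had a coding log2 of -0.78 (-1.34 to -0.26). Sox12 did not share the negative coding sign, with 28 knockout-labelled and 20 wild-type reads and a log2 of 0.70 (-0.20 to 1.58). In 3' UTRs the log2 of summed reads was 1.87 (1.22 to 2.54) for Sox4, 1.72 (1.08 to 2.37) for Sox12 and 1.02 (-0.05 to 2.07) for Sox9. These 3 genes do not differ beyond their intervals.

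**Figure D3:**
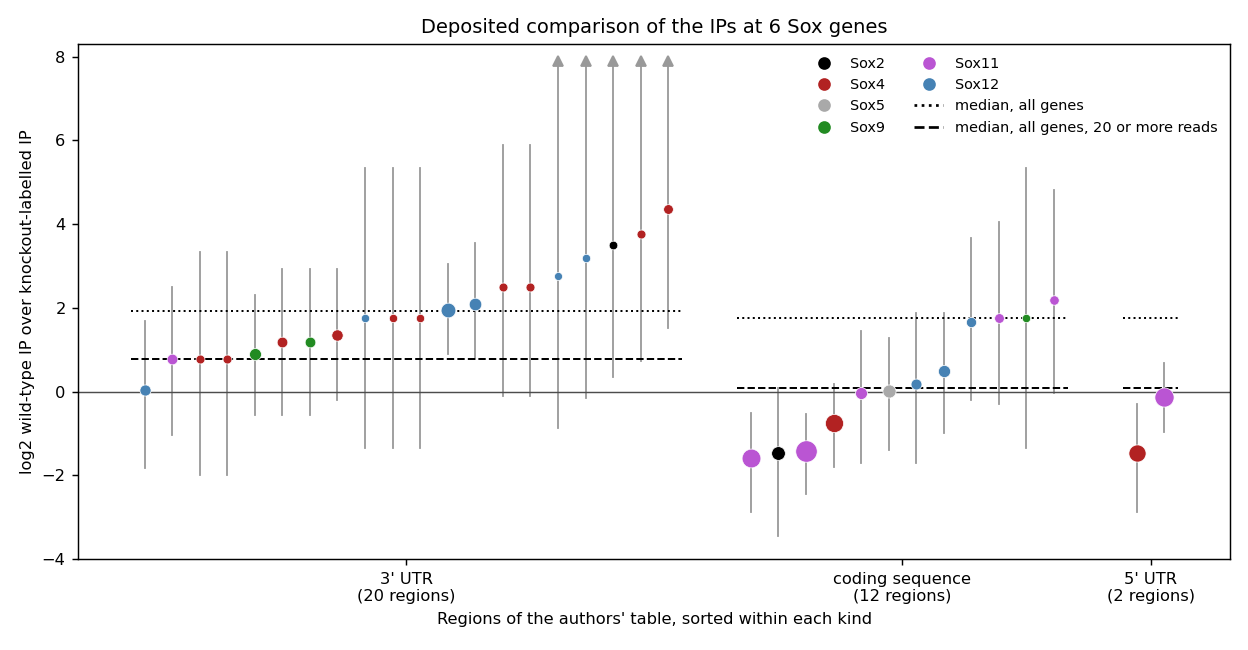
Points are the 34 regions of the 6 genes in the authors' deposited table, sorted by log2 within 3' UTR, coding sequence and 5' UTR, with larger points for more reads. The y axis is the log2 of wild-type IP over knockout-labelled IP, and vertical lines are 95% counting intervals, with arrows where the upper bound is unknown. Dotted and dashed lines are medians over all genes, without and with a minimum of 20 reads. All 20 3' UTR points lie above 0, and the largest points, from Sox11 and Sox4 coding sequence and 5' UTR, lie below it.

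At the coding and 5' UTR places where the knockout-labelled IP was higher, the depth-scaled input count of the whole cluster was higher too. The 2 libraries' clusters differ in span there, and these ratios are of whole clusters scaled to depth, not to length. The knockout-labelled cluster was longer at the Sox11 coding pairs, with 110 against 70 and 98 against 27 bases. It was also longer at both Sox4 pairs (172 against 66 bases in the 5' UTR) and at the Sox5 pair (68 against 39). At the Sox12 pair it was shorter, with 40 against 67 bases. The part of span in these ratios was not tested. At the Sox11 cluster pair nearer the end of the coding sequence, the knockout-labelled library was higher by a log2 of 1.62 (0.74 to 2.63) in the IP and 2.63 (1.88 to 3.46) in the input. At the other Sox11 coding pair these values were 2.06 (1.01 to 3.32) in the IP and 2.32 (1.33 to 3.44) in the input. The Sox4 coding pair gave 0.75 (-0.19 to 1.80) in the IP and 2.49 (1.71 to 3.36) in the input, and the Sox4 5' UTR pair gave 1.79 (0.65 to 3.17) and 2.04 (0.63 to 3.67) in that order. At the Sox5 coding pair the IP ratio was -0.10 (-1.39 to 1.32) and the input ratio 2.76 (0.92 to 5.20). The Sox12 coding pair had ratios of -0.60 (-2.01 to 0.89) in the IP and 0.37 (-1.21 to 1.91) in the input.

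Input reads come from RNA without the AGO2 selection, and at each of these pairs the log2 over input was lower in the knockout-labelled library, also where its IP reads were higher. This was also the common case: over 1457 coding pairs of all genes with 5 or more input reads in both libraries, the median log2 of knockout-labelled over wild type was 0.17 in the IP and 1.21 in the input. The deposited comparison of the IPs does not use the inputs, and the part of the input difference in it was not tested. More RNA of a gene and more AGO2 per RNA cannot be told apart from the IPs alone, nor can fewer cells of a type and less RNA per cell in whole brain.

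**Figure D4:**
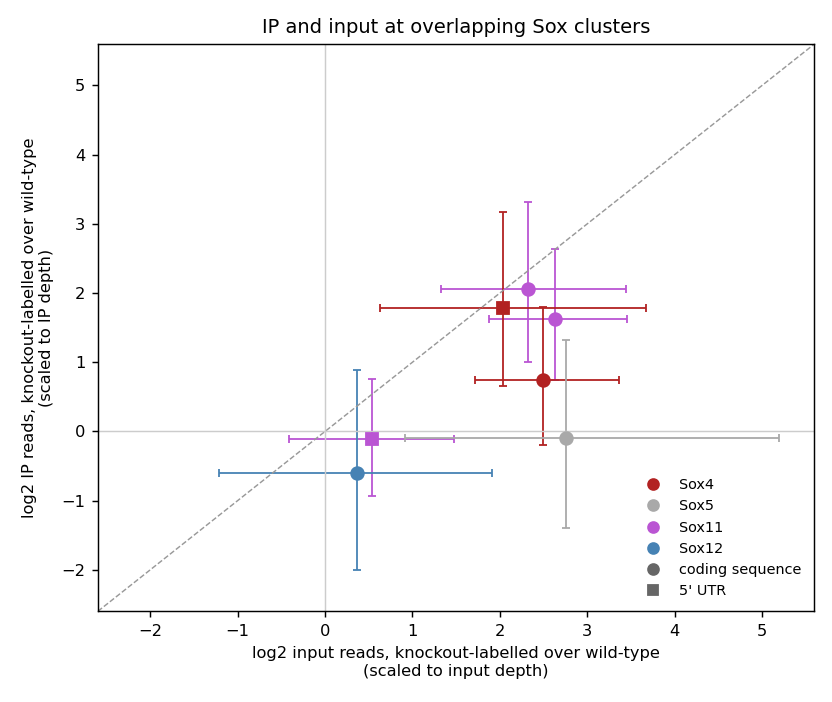
Each symbol is an overlapping pair of clusters with more than 1 input read in both libraries. The x axis is the log2 of input reads and the y axis the log2 of IP reads. Both are knockout-labelled over wild type and scaled to depth, not to cluster length. Bars are 95% counting intervals, circles are coding sequence, squares 5' UTR, and the dashed line marks equal ratios. All 7 symbols lie below the line and to the right of 0 on the input axis, and the input bars of the Sox12 circle and the Sox11 square cross 0. The Sox11 square uses the knockout-labelled cluster whose midpoint is 1 base outside the gene.

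Overlap between the libraries was partial. Of the knockout-labelled clusters 11 of 42 (26.2%, 13.9 to 42.0) overlapped a wild-type cluster by at least 1 base, and of the wild-type clusters 12 of 34 (35.3%, 19.7 to 53.5) overlapped a knockout-labelled one. Over all genes 17.7% of exonic knockout-labelled and 36.2% of exonic wild-type clusters did so. In coding sequence it was 6 of 24 knockout-labelled clusters and 6 of 12 wild-type clusters, against 15.5% and 38.0% over all genes. In 3' UTRs it was 4 of 16 and 4 of 20, against 24.8% and 32.7%.

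Seed matches of 7 or 8 bases to 27 miRNA families were found in 3 of 16 knockout-labelled 3' UTR clusters (interval 4.05 to 45.6% of clusters) and 4 of 20 wild-type ones (5.73 to 43.7). Over all genes 26.6% of knockout-labelled and 26.1% of wild-type 3' UTR clusters held one. All 7 Sox clusters with a match were enriched, and they made up 3 of the 3 enriched knockout-labelled and 4 of the 11 enriched wild-type 3' UTR clusters. The miR-128 site of Sox9 counts in both libraries. Among 3' UTR clusters of all genes with a match, 487 of 2846 were enriched in the knockout-labelled and 1176 of 2242 in the wild-type library. Among enriched 3' UTR clusters of all genes the share with a match was 50.8% in the knockout-labelled and 36.9% in the wild-type library.

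By family, miR-30 matches (TGTTTAC, or its last 6 letters followed by A) were in 0 of the 16 knockout-labelled and 2 of the 20 wild-type clusters, against 1.75% and 1.97% over all genes. A miR-34 match (CACTGCC) was in 1 wild-type cluster, against 0.803% over all genes. A miR-128 match (CACTGTG) was in 1 cluster of each library, against 1.84% of knockout-labelled and 1.62% of wild-type clusters of all genes. The miR-25/92 match (GTGCAAT) and the miR-125 match (CTCAGGG) were each in 1 knockout-labelled cluster, against 0.730% and 2.09% over all genes. Each other family searched had 0 matches in the Sox clusters. Among them were let-7 (3.20% of knockout-labelled and 3.15% of wild-type clusters of all genes) and miR-9 (2.57% and 2.51%). A single match among 16 or 20 clusters already exceeds each of these shares, so they cannot show that a family was more frequent here. Only the transcript strand was read, and a cluster counted once per family. The other enriched wild-type 3' UTR clusters, among them the Sox12 cluster of 15 reads, held none of the letters searched.

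G-quadruplexes are folds that runs of guanine can form in RNA, and the series title names them. Searched for were 4 guanine runs, each of 3 or more, separated by loops no longer than 7 bases, in the RNA's own strand and no farther than 50 bases from a cluster. Such a pattern was near 3 of 42 knockout-labelled clusters (7.14%, 1.50 to 19.5) and 2 of 34 wild-type clusters (5.88%, 0.720 to 19.7), against 2.33% and 2.41% over all genes. Both intervals include the value over all genes. The 5 clusters were 1 each of Sox12, Sox5 and Sox2 in the knockout-labelled library and 2 of Sox11 in the wild-type library. One of these knockout-labelled clusters, at the Sox12 start, was enriched, and its pattern is shown with the guanine runs in capitals.
Sox12 coding sequence, chr2:152397657-152397685, minus strand: GGGGcgcgcGGGccaagcGGGacggcGGG

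Base composition went with place. The median GC content of coding clusters of the 6 genes was 69.9% in the knockout-labelled and 68.8% in the wild-type library, against 55.2% and 54.8% over all genes. In 3' UTR clusters it was 54.8% in the knockout-labelled library, 4.79 percentage points above all genes, and 49.2% in the wild-type library, 0.153 points above all genes. Its part in the results above was not tested.

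Of the other 14 Sox genes of the mouse 7 had an exonic cluster in the knockout-labelled library and 6 in the wild-type library, while all 6 genes described here had one in each library. Among all protein-coding genes 38.2% had an exonic knockout-labelled cluster and 30.1% a wild-type one. None of the 20 knockout-labelled clusters of the other Sox genes was enriched, where 3.57% of exonic clusters of all genes were, and 5 of their 10 wild-type clusters were, where 27.5% were, in Sox1, Sox6, Sox8 and Sox13. Sox1, a close relative of Sox2 in the SoxB1 group, had 26 IP reads in each library and the 1 region of these genes past the limits in the authors' deposited table.

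Genes that act with or under these factors were counted in the same way. Of 5 neuronal targets of SOX4 and SOX11, such as Tubb3 and Dcx, 3 had an enriched knockout-labelled and 5 an enriched wild-type cluster, while 5.20% and 15.2% of all protein-coding genes did. Of 10 progenitor genes and partners of SOX2, 1 and 3 did in the same order, and of 10 gliogenesis genes around SOX9, 2 and 5. The shares of all protein-coding genes take in genes without any cluster. Among those with an exonic cluster, 1140 of 8368 had an enriched one in the knockout-labelled and 3326 of 6596 in the wild-type library. With an exonic wild-type cluster were 5 genes of the SOX4 and SOX11 list, 9 of the SOX2 list and 8 of the SOX9 list. In the authors' deposited table the regions past the limits numbered 3 of 68 for the SOX4 and SOX11 targets, 3 of 39 for the SOX2 list and 2 of 54 for the SOX9 list, against 2.88% of exonic regions of all genes. The medians of these regions in the authors' deposited table were 0.77, 1.47 and 1.25 in the same order, against 1.77 over exonic regions of all genes. The lists held 69 knockout-labelled clusters in 5 genes, 74 in 10 and 84 in 10, also in this order, and the part of the number of clusters in these counts was not tested.

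Likeness to other genes was measured over 6 values, the log2 of 1 plus the summed IP reads in 3' UTR, coding sequence and 5' UTR of both libraries, among 9293 protein-coding genes. The genes nearest to Sox4 were Agap1 (distance 1.02) and Gpm6a (1.81), and those nearest to Sox12 were Prdm2 (0.71) and Dock3 (0.84). To Sox5, which had few exonic reads, Atf6b (0.30) and Psmd3 (0.33) were nearest. Of these 4 genes Sox11 was farthest from its nearest gene, Huwe1 (2.26). Huwe1 had 355 coding reads in the knockout-labelled and 44 in the wild-type library where Sox11 had 287 and 38, and its 5' UTR clusters held 3 and 10 reads where those of Sox11 held 0 and 19, each pair in the same order of libraries. The Sox11 value of 0 leaves out a knockout-labelled cluster of 40 IP reads whose midpoint is 1 base outside the GENCODE gene. With it counted, the nearest gene and distance of Sox11 could differ, and this was not computed. Sox2 and Sox9 had fewer than 5 wild-type clusters and were not compared in this way.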

How the data were processed

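Each deposited region carries the authors' -log10 p, capped at 400, and the authors' log2 ratio of read densities, for each IP over its input and, in the table between the libraries, for wild-type IP over knockout-labelled IP. Per the labels' protocols, Cutadapt 1.15 trimmed the reads, those on repeats were dropped, STAR 2.6.0c mapped the remainder to mm10, UMI tools (version given as 5.2) removed PCR duplicates and CLIPper 1.4 found the clusters of each IP. How the table between the IPs was made is not given in the sources used here. Of its 46862 regions 46799 are wild-type clusters, and wild type was taken as the numerator.

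The build was checked: 59215 of 59255 GENCODE M21 start codons read ATG at their GRCm38 positions. Each region took the annotation of its midpoint on its strand, coding sequence before 3' UTR, this before 5' UTR, and exons of non-coding transcripts before introns. Reads were recovered where, after taking off one constant per table, 2 to the power of log2 was a fraction of whole numbers with a denominator no larger than 1000. This held for 99.98% of knockout-labelled, 99.97% of wild-type and 99.97% of series regions, and the listed -log10 p was met within 1% by an exact binomial or Yates-corrected chi-square test. No denominator was 0. The recovery was tested on simulated data, and wild-type reads from both tables were equal in 42616 of 42616 shared regions. Intervals are 95% Clopper-Pearson intervals of counting error. UTR sites were sought with 27 of 30 listed miRNA families, and miR-124, miR-145 and miR-140 were not searched. miRNA sequences are RefSeq's for GRCm38.p6.

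With 1 library per genotype no test between genotypes was made. Clusters described one by one were those enriched or past the limits and, for each gene, that with the most IP reads in each library. The nearest genes were sought for genes with 5 or more wild-type clusters, introns included. One gene group listed for comparison and one near gene are not reported here. Members and lists were chosen with earlier results of these data known. Python 3.11.15, pandas 2.3.3, SciPy 1.17.1 and bedtools 2.31.1 were used.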

Additional observations from a re-analysis of the deposited data

Results flagged for a closer look

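At one place in a Sox5 intron the 2 libraries had opposite signs of log2 over input. The knockout-labelled clusters chr6:144568461-144568474 and chr6:144568475-144568522 had log2 values of -1.28 and -1.48, while the overlapping wild-type clusters chr6:144568455-144568468 and chr6:144568469-144568514 had 0.79 each. The wild-type clusters abut and held 3 IP over 11 input reads each (interval -1.69 to 2.71), and no reads could be recovered for the knockout-labelled ones. The difference was not tested.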

How the results depend on the processing

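No paired analysis was possible because each genotype has 1 IP library and the labels give no replicate numbers. A -log10 p limit of 5 with a log2 limit of 4 left 1 enriched cluster in the knockout-labelled and 4 in the wild-type library, in place of 6 and 15, and a minimum of 5 input reads left 0 and 1. A minimum of 10 IP reads, added after seeing the data, left 6 and 2. With 5 or more IP reads the wild-type 3' UTR clusters numbered 13 in place of 20. Extending clusters by 20 bases gave 8 knockout-labelled 3' UTR clusters with a seed match in place of 3. Among the 8, neighbouring Sox9 clusters were counted for the same miR-218 site. Shares over all genes at these other limits and with this extension are not given, so the counts have no background beside them. In the authors' deposited table, limits of 5 and 2 left 0 of the 3 regions higher in wild type. The median log2 over all 34 regions of that table was 1.27, and it became 0.89 after centring on regions with 20 or more reads, -0.08 over regions with 20 or more reads, and 0.28 from summed reads. For 3' UTRs these values were 1.39, 1.95 and 1.65 in place of 1.77. For coding sequence they turned negative, to -0.28, -0.75 and -0.47 in place of 0.10. For 5' UTRs centring gave -1.17 and summing -0.62 in place of -0.79. The cause of these shifts was not tested. The remaining alternatives, other annotation orders and overlap rules among them, left each count within 1.5 times its reported value. Low read numbers limit the wild-type side most: 12 of its 34 clusters have at most 1 input read, and most rest on 6 IP reads or fewer. The wild-type IP was the shallower IP, but the wild-type input was the deeper input. Depth of the knockout-labelled over the wild-type input was 0.690.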
